A study of Mus musculus with 36 samples.

Results

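Cortical thymic epithelial cells (cTEC) were compared with the mature class of medullary thymic epithelial cells (mTEChi). The comparison used the 6 cTEC arrays and the 6 mTEChi arrays, 12 of the 36 arrays in the study, taken by their labels. All came from male wild-type C57BL/6J mice at 1, 3 or 6 months of age, with 2 arrays per population and age, and the 3 ages were given equal weight. The other arrays held a second medullary class (mTEClo), 2 kinds of thymic dendritic cell and thymic fibroblasts. The thymi were digested with enzymes and the cells were sorted by flow cytometry. The labels name mTEChi by high and mTEClo by low CD80 and MHC class II, and give no such gate for cTEC. Cd80 and the MHC class II genes are therefore described by their values and are no finding between the populations. Whether replicate arrays hold separate mice is not settled by the labels, which give 1 mouse to a sample but 2 to an age in the design. The p-values therefore measure the spread between these samples, which may be technical.

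The thymic cortex is where immature thymocytes are brought in, receive Notch and cytokine signals, and are tested for recognition of self MHC molecules. Cortical epithelial cells display peptides made by a thymus-specific proteasome and by their own lysosomal proteases. In the medulla, mature epithelial cells transcribe genes that are otherwise limited to single tissues, under the control of the regulators Aire and Fezf2, so that thymocytes that recognise self can be removed. Maturation of medullary cells depends on the receptors RANK and CD40, which act through NF-kB.

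Of the 18193 genes on the arrays, 14495 were above the pooled median signal in at least 2 arrays and were tested with a linear model (limma). A gene was called when its adjusted p was under 0.05 and the difference at least 2-fold. Replicate arrays of a group correlated at 0.980 to 0.986 over these genes, except the pair of mTEChi arrays at 6 months, at 0.949. That pair had a spread of 0.42 between arrays on the log2 scale, against 0.21 to 0.29 in the other 5 pairs. Counts of list members and single differences at 6 months are therefore given with and without each of these arrays. The population labels were then checked on 3 marker genes.

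Psmb11, which encodes the catalytic subunit of the cortex-specific thymoproteasome, had a log2 signal of 10.18 at the lowest, 10.91 at the median and 12.16 at the highest in cTEC, against 6.21, 6.77 and 7.53 in mTEChi. Aire, the regulator of tissue-restricted genes in the medulla, ranged from 5.68 over 6.15 to 6.43 in cTEC and from 10.67 over 11.09 to 11.97 in mTEChi. Fezf2, a second such regulator, ranged from 5.90 over 7.25 to 7.97 in cTEC and from 11.03 over 11.20 to 12.57 in mTEChi. No array of one population overlapped the other for any of these 3 genes. Psmb11 was 17.9-fold higher in cTEC (log2 difference 4.16 ± 0.22 SE, adjusted p = 2.3e-14). Aire was 34.0-fold higher in mTEChi (-5.09 ± 0.15, adjusted p = 9.8e-19), and Fezf2 was 21.3-fold higher there (-4.42 ± 0.21, adjusted p = 3.71e-15). In the other medullary class, mTEClo, the mean levels were 6.15 for Psmb11, 7.59 for Aire and 10.05 for Fezf2.

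**Figure D1:**
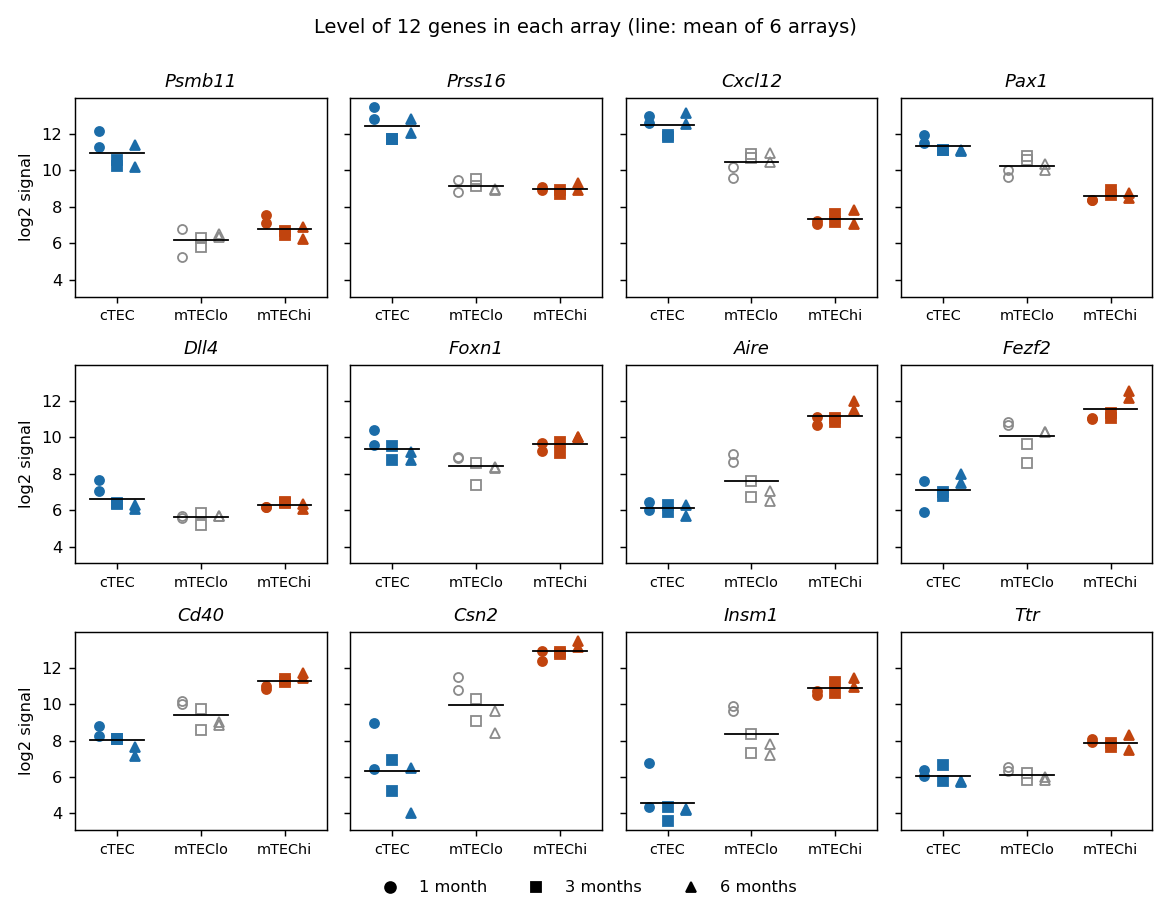
Log2 signal of 12 genes (vertical axis) in each array of cTEC, mTEClo and mTEChi (horizontal axis), with symbols for the age and a line at the mean of 6 arrays. Psmb11, Prss16, Cxcl12 and Pax1 lie higher in every cTEC array than in any mTEChi array, Aire, Fezf2, Cd40, Csn2, Insm1 and Ttr lie lower, and Dll4 and Foxn1 overlap.

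More genes were called higher in mTEChi (2004 genes, 13.8% of those tested) than in cTEC (1448 genes, 9.99%). The median difference over all tested genes was 0.02 on the log2 scale. Among differences of at least 8-fold, 356 genes were higher in mTEChi and 79 in cTEC, and at 32-fold or more the counts were 36 and 2. Signals below the pooled median of 5.66 approach background, so where most arrays of a population lie there, the size of the difference depends on the floor of the normalised signal. For such genes the difference is given on the log2 scale, with no fold. Of the called genes, 1246 (8.6% of those tested) were higher in cTEC with no overlap between the 12 arrays, and 1810 (12.5%) were higher in mTEChi with no overlap. Leaving out any 1 of the 12 arrays kept the counts between 1356 and 1595 for cTEC and between 1966 and 2034 for mTEChi. Scaling every array to the same median moved the split to 1830 higher in cTEC and 1739 higher in mTEChi, with the median difference at 0.16.

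**Figure D2:**
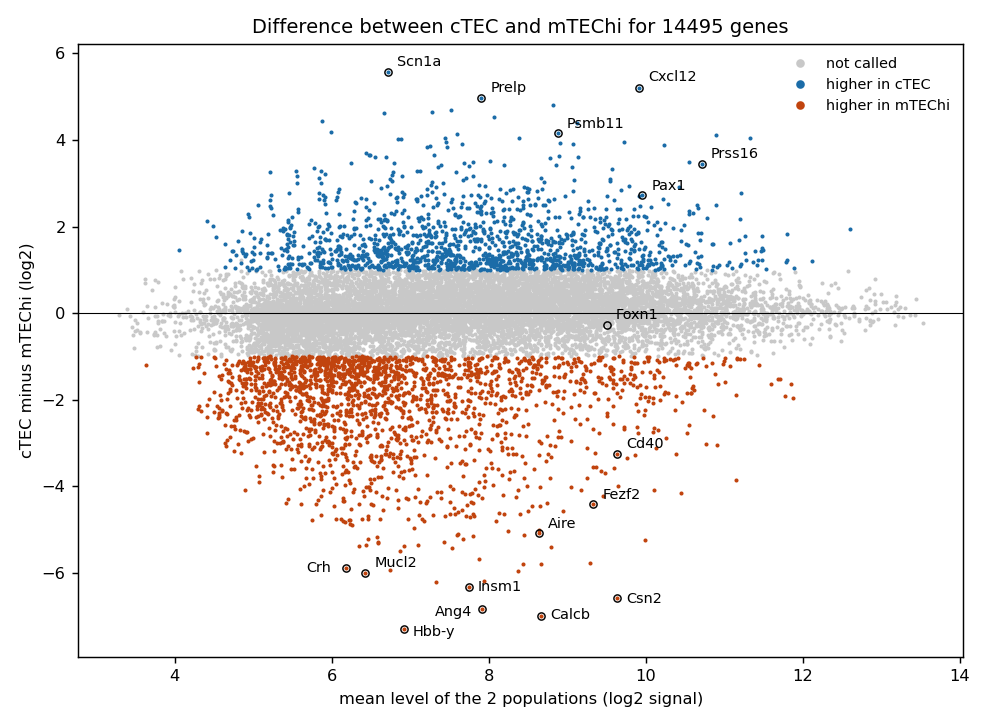
Difference between cTEC and mTEChi (vertical axis, log2) against the mean level of the populations (horizontal axis, log2 signal) for 14495 genes, coloured by the call, with 17 named genes circled. The points below 0, higher in mTEChi, reach -7.30 at Hbb-y, and those above 0 reach 5.58 at Scn1a.

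The genes that mark the cortex were higher in cTEC in 12 of 15 cases, against 9.99% of all genes tested. The median difference of the list was 1.95, and the other 3 were not called. Prss16, the thymus-specific serine protease of the class II pathway, had signals of 11.75, 12.42 and 13.48 (lowest, median, highest) in cTEC against 8.71, 8.93 and 9.33 in mTEChi, a difference of 3.46 ± 0.16 (adjusted p = 2.06e-15). Ctsl, the lysosomal protease that makes class II peptides in cortical cells, differed by 1.95 ± 0.31, between a median of 13.63 in cTEC and 11.67 in mTEChi. Ly75, the endocytic receptor DEC-205, and Enpep, the aminopeptidase detected by a common cortical surface antibody, were higher in cTEC by 1.95 ± 0.22 and 1.69 ± 0.15, with no overlap of arrays.

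Signals that act on thymocytes formed part of the same list. Cxcl12, the chemokine that guides thymocytes through the receptor CXCR4, ranged from 11.85 over 12.56 to 13.17 in cTEC and from 7.03 over 7.21 to 7.81 in mTEChi. Its difference of 5.20 ± 0.24, or 36.7-fold (adjusted p = 1.21e-15), was the second largest on the cortical side among genes without overlap. Ackr4, a receptor that removes the chemokines CCL19, CCL21 and CCL25 from the surroundings, was higher in cTEC by 3.28 ± 0.13, at medians of 8.70 and 5.57. Il7, the survival cytokine of immature thymocytes, was higher by 2.23 ± 0.21 and Kitl, the ligand of the receptor KIT on early thymocytes, by 2.11 ± 0.32. In both, the lowest cTEC array was above the highest mTEChi array.

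Ccl25, which draws thymocyte progenitors through the receptor CCR9, was called at a smaller difference of 1.21 ± 0.19 (medians 12.71 and 11.48). A second, dimmer probe set for Ccl25 gave -0.39, and the mean of all its probe sets was not called. Cd83, a surface protein that stabilises MHC class II, was higher by 1.84 ± 0.37 and Tbata, a thymus stroma protein, by 1.46 ± 0.30, and for both the arrays of the populations overlapped. Krt18 (0.96 ± 0.14), Krt8 (0.22 ± 0.18) and Dll4 (0.37 ± 0.12) were not called over the 3 ages. Krt8 and Krt18 encode simple-epithelium keratins often used to stain the cortex.

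Markers of thymocytes moved in the same direction as the cortical list. Of 13 thymocyte markers tested, 9 were higher in cTEC, against 9.99% of all genes, with a median difference of 1.98. Their mean log2 level was 6.49 to 8.54 in the cTEC arrays and 5.90 to 6.41 in the mTEChi arrays, and their summed level was 10.46 to 12.89 against 10.09 to 10.51. Rag1, the recombinase subunit of immature thymocytes, was higher in cTEC by 3.47 ± 0.55, while Cd4 (0.00 ± 0.15) and Cd3e (0.21 ± 0.15) were not called. Fitted with the mean of these markers as a covariate, 10 of the 15 cortical markers were called, and Ccl25, Cd83 and Tbata were not among them. The part of thymocyte RNA in other cortical differences was not tested gene by gene. In sorted bulk samples, fewer cells of a type and less RNA per cell cannot be told apart.

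The cortical list was followed at each age. At 1 month, 15 of 15 members were called higher in cTEC, against 11.7% of all tested genes. At 3 months 7 of 15 were called (9.38% of all), and at 6 months 9 of 15 (11.8% of all). The count at 6 months was 9 without the first mTEChi array and 8 without the second. A difference between ages was called for 1 member, Dll4, the Notch ligand that commits progenitors to the T lineage. Its cTEC arrays read 7.63 and 7.03 at 1 month, 6.41 and 6.36 at 3 months, and 6.07 and 6.30 at 6 months, while its mTEChi arrays lay between 6.05 and 6.47 throughout. The change from 1 to 6 months was -1.18 ± 0.30 (adjusted p = 0.0338), and it was not called without either mTEChi array at 1 month or without the first cTEC array at 1 month or at 6 months. It was not called either with quantile normalisation, equal array medians or array weights, or when the fit held only the cTEC and mTEChi arrays or only the epithelial arrays (adjusted p from 0.0555 to 0.2195).

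Other genes of the Notch pathway were compared over the 3 ages. Of 18 tested, 5 were higher in cTEC and 1 in mTEChi, against 9.99% and 13.8% of all genes, with a median of 0.45. The ligand Dll1 had signals of 9.39, 9.66 and 9.86 in cTEC against 6.43, 7.20 and 8.03 in mTEChi, a difference of 2.42 ± 0.20 (adjusted p = 8.27e-11). The ligand Jag2 differed by 2.66 ± 0.13, and the target genes Hey1 and Hes1 by 3.07 ± 0.16 and 1.83 ± 0.19. The arrays did not overlap for Dll1, Jag2 and Hey1, and overlapped for Hes1. Jag1, at 1.01, lost its call in 5 of the 12 fits that left out an array. Mfng, a glycosyltransferase that modifies Notch receptors, was higher in mTEChi (-1.59 ± 0.13). The mTEClo means of Dll1 (9.47), Hey1 (9.92) and Hes1 (9.77) lay close to the cTEC medians of 9.66, 10.60 and 9.21.

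Regulators of thymic epithelial identity were compared next. Foxn1, the factor that thymic epithelium needs to form and persist, had overlapping signals of 8.74, 9.36 and 10.42 in cTEC and 9.16, 9.73 and 10.01 in mTEChi, and was not called (-0.27 ± 0.18). Pax1, a factor of the pharyngeal pouch from which the thymus forms, ranged from 11.08 over 11.13 to 11.93 in cTEC and from 8.35 over 8.58 to 8.91 in mTEChi (2.72 ± 0.12, 6.59-fold, adjusted p = 8.41e-16). Bcl11a, a zinc-finger repressor (2.58 ± 0.23), Trp63, the p63 factor of stratified and thymic epithelium (2.22 ± 0.21), and Eya1, a pouch cofactor (1.71 ± 0.17), were also higher in cTEC with no overlap. In all, 4 of 13 factors were higher in cTEC, against 9.99% of all genes. Only 1, the epithelial factor Ehf (-1.81 ± 0.25), was higher in mTEChi, against 13.8% of all genes, and it is given as a single value.

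The mTEClo means of Trp63 (10.91), Eya1 (10.03) and Bcl11a (8.85) lay nearer the cTEC medians of 11.14, 10.05 and 9.21 than the mTEChi medians of 9.03, 8.52 and 6.66. Psmb11 (6.15), Prss16 (9.14) and Ackr4 (6.21), by contrast, had mTEClo means near the mTEChi medians of 6.77, 8.93 and 5.57. Among the 20 largest differences on the cortical side, the mTEClo mean was nearer to cTEC for 9 genes and nearer to mTEChi for 11.

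The largest difference on the cortical side lay outside the marker list, in a gene known from another tissue. Scn1a, a voltage-gated sodium channel subunit of neurons, had signals of 8.84, 9.39 and 10.37 in cTEC and 3.68, 3.85 and 4.50 in mTEChi (5.58 ± 0.14, adjusted p = 3.05e-20). The mTEChi arrays were all below the pooled median. Kcnk2, a background potassium channel (4.70 ± 0.25), Klf15, a metabolic transcription factor (4.65 ± 0.33), Pmp22, a myelin protein (4.53 ± 0.28), and Thbd, the anticoagulant receptor thrombomodulin (4.02 ± 0.26), also separated fully. Nlgn1, a synaptic adhesion protein, and Dpp6, a potassium channel partner, were higher in cTEC by 2.27 ± 0.14 and 2.02 ± 0.12. In a list of neural-type genes of the cortex, 9 were tested. Of these, 3 were higher in cTEC and 2, Ntm and Scn3a, in mTEChi. The shares of all genes were 9.99% and 13.8%. The list was chosen for the cortex with earlier results of these data known, so its count in cTEC is no test.

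Matrix genes were called on both sides. Of 10 small leucine-rich proteoglycans, which bind collagen and growth factors, 4 were higher in cTEC and 1 in mTEChi, against 9.99% and 13.8% of all genes, with a median difference of 0.47 and 5 not called. Prelp ranged from 9.61 over 10.53 to 10.84 in cTEC and from 5.15 over 5.47 to 5.51 in mTEChi (4.98 ± 0.36, adjusted p = 1.08e-11), where all 6 arrays were below the pooled median. Fmod, fibromodulin, ranged from 10.76 over 11.11 to 11.86 and from 6.10 over 6.39 to 6.78 (4.80 ± 0.26, 27.8-fold). Ogn and Dcn, osteoglycin and decorin, were higher in cTEC by 3.06 ± 0.30 and 2.30 ± 0.31, and none of these 4 genes overlapped between the populations. Aspn, asporin, was higher in mTEChi (-2.21 ± 0.14), as was Prg4, the joint lubricant lubricin, a proteoglycan of another family that is not among the 10 (-4.07 ± 0.19).

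Among 27 other matrix genes, 10 were higher in cTEC and 3 in mTEChi, against 9.99% and 13.8% of all genes. The median of the 27 was 0.34, and 14 were not called. The basement membrane chains Col4a5 (3.01 ± 0.39), Col18a1 (2.34 ± 0.15), Lamb1 (2.08 ± 0.28) and Lama3 (1.92 ± 0.15) and the collagen-binding protein Sparc (2.44 ± 0.16) were on the cortical side, each with no overlap. Lama3 was not called when all its probe sets were averaged. The mTEClo means of Lama3 (9.85), Lamb1 (11.20), Sparc (10.20) and Col18a1 (9.69) were close to the cTEC medians of 9.58, 11.21, 10.41 and 10.05. Of 12 fibroblast markers, 2 were higher in cTEC and 2 in mTEChi, against 9.99% and 13.8% of all genes. Their mean level was 5.86 to 6.21 in cTEC and 6.36 to 6.44 in mTEChi, against 8.10 to 11.10 in the fibroblast arrays. Pdgfra was below the pooled median in both epithelial populations. The part of fibroblast RNA in the matrix differences was not tested.

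Secreted signals of the Wnt, BMP, FGF and TGF-beta families were found on both sides. Of 22, 7 were higher in cTEC and 8 in mTEChi, against 9.99% and 13.8% of all genes. Fst, the activin and BMP antagonist follistatin, was 15.3-fold higher in cTEC (3.93 ± 0.25), at signals of 8.63, 11.28 and 11.61 against 5.44, 6.92 and 8.15. Fgfr2, whose ligands FGF7 and FGF10 drive thymic epithelial growth, ranged from 10.04 over 10.54 to 10.99 in cTEC and from 7.67 over 7.94 to 8.24 in mTEChi (adjusted p = 5.69e-14). Bmp4 and Wnt4, both inducers of Foxn1 in the embryo, were higher by 1.97 ± 0.21 and 1.95 ± 0.13. On the medullary side, Fgf21, a hormone of the liver, was higher in mTEChi (-4.81 ± 0.14), with 3 of 6 cTEC arrays below the pooled median, and so was Bmp2 (-3.04 ± 0.32). The groups did not overlap for any of these 6 genes.

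Of 18 interferon-induced genes, 7 were higher in cTEC and 1 in mTEChi, against 9.99% and 13.8% of all genes, with a median of 0.32. Ifit3, which restrains viral RNA translation, ranged from 10.11 over 10.44 to 10.90 in cTEC and from 7.74 over 8.12 to 8.36 in mTEChi (2.40 ± 0.15). Isg20, an RNase, was higher in cTEC by 2.23 ± 0.26 and Irf9, the DNA-binding subunit of the interferon-activated complex, by 1.25 ± 0.13. Oasl1 was higher in mTEChi (-2.14 ± 0.16). Ifit1, Irf7 and Stat2 were close to the 2-fold limit, and lost their calls without some arrays. The list held 5 calls higher in cTEC without the second cTEC array at 1 month or the second mTEChi array at 6 months, and 6 in cTEC and 2 in mTEChi without the second cTEC array at 6 months. At 1, 3 and 6 months the counts were 7, 5 and 5 higher in cTEC and 2, 1 and 3 higher in mTEChi. Those at 6 months were 6 and 2 without the first mTEChi array and 4 and 3 without the second.

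Genes of antigen processing were counted by complex. The shares called among the proteasome, class I loading and autophagy genes were below those of all genes (9.99% and 13.8%), so the members are given as single values. Of 21 proteasome genes, Psmb11 was higher in cTEC and Psme1, a subunit of the interferon-induced activator, in mTEChi (-1.20 ± 0.14). The immunoproteasome genes Psmb8 (-0.24 ± 0.15) and Psmb10 (-0.04 ± 0.13) were not called, nor was Psmb9, although its arrays did not overlap (0.96 ± 0.14). Of 11 class I loading genes, only the class I transactivator gene Nlrc5 was called, in mTEChi (-1.55 ± 0.18). Of 26 autophagy genes, which supply cytoplasmic peptides to class II in thymic epithelium, only Ulk1, the initiating kinase, was called, in cTEC (1.45 ± 0.14), and not with all its probe sets averaged. Atg5 (0.77 ± 0.15) and Lamp2 (0.65 ± 0.14) stayed under 2-fold.

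Of 14 lysosomal proteases, 6 were higher in mTEChi, against 13.8% of all genes. The 2 higher in cTEC were near the 9.99% of all genes. Ctsh, cathepsin H, had signals of 6.98, 8.08 and 9.18 in cTEC against 11.93, 12.21 and 12.34 in mTEChi (-4.09 ± 0.28, 17.1-fold, adjusted p = 2.29e-12). Ctsz (-2.78 ± 0.15), Ctsk (-2.06 ± 0.33), the lysosomal thiol reductase gene Ifi30 (-1.84 ± 0.17) and Ctss, the protease that trims the invariant chain in most antigen-presenting cells (-1.52 ± 0.25), were also higher in mTEChi. Ctsl and Prss16 were the cortical members. Of 9 MHC class II genes, H2-Ob (-2.68 ± 0.24), H2-Oa (-2.25 ± 0.19), which encode the peptide-exchange inhibitor DO, and H2-DMb2 (-1.13 ± 0.18) were higher in mTEChi. H2-Aa, a class II chain itself, had the same median of 13.53 in both. H2-DMb2 was not called with equal array medians or with the thymocyte covariate. Because high MHC class II is part of the mTEChi label, these values are not read further.

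Of 14 medullary markers other than Cd80, which is part of the mTEChi label, 11 were higher in mTEChi, against 13.8% of all genes. The median of the 14 was -2.45, and the other 3 were not called. Aire and Fezf2, given above, are among the 11. Ccl22 and Ccl17, ligands of CCR4 on maturing thymocytes, differed by -3.81 ± 0.25 and -2.44 ± 0.21. Xcl1, which attracts dendritic cells and is under Aire control, differed by -1.60 ± 0.19, with cTEC arrays of 3.77 to 4.04 at background level. The tight-junction genes Cldn4 (-2.60 ± 0.25) and Cldn3 (-1.85 ± 0.22), which mark the medullary lineage, were higher too. Krt5 (0.63 ± 0.20), Krt14 (0.28 ± 0.19) and Epcam (-0.81 ± 0.21), common medullary stains, were not called. The mTEClo mean of Krt5 was 12.71, against medians of 11.49 in cTEC and 10.76 in mTEChi.

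Of 18 RANK, CD40 and NF-kB genes, 11 were higher in mTEChi, against 13.8% of all genes, and the median of the list was -1.22. The 2 higher in cTEC were near the 9.99% of all genes. Tnfrsf11b, the decoy receptor osteoprotegerin that binds RANK ligand, had signals of 3.35, 4.99 and 6.01 in cTEC and 9.66, 10.08 and 10.44 in mTEChi (-5.29 ± 0.28, adjusted p = 1.84e-14). Cd40 ranged from 7.14 over 8.10 to 8.81 and from 10.84 over 11.29 to 11.74 (-3.25 ± 0.17, 9.54-fold). Tnfrsf11a, the receptor RANK itself, ranged from 5.47 over 5.82 to 6.06 and from 7.84 over 8.15 to 9.06 (-2.45 ± 0.13). None of these 3 genes overlapped between the populations.

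Downstream of these receptors, the adaptor Traf1 (-2.77 ± 0.17), the inhibitor of apoptosis Birc3 (-1.82 ± 0.13), and Nfkb2 (-1.81 ± 0.12) and Relb (-1.54 ± 0.15), the subunits of the alternative NF-kB pathway, were higher in mTEChi. The cortical exceptions were Ltbr, the lymphotoxin receptor (1.83 ± 0.18), at medians of 8.06 and 6.22, and the adaptor Traf5 (1.18 ± 0.14). Traf5 was not called with all its probe sets averaged. The difference for Cd40 was -2.38 at 1 month and -4.19 at 6 months, or -4.04 and -4.34 without the first and the second mTEChi array at 6 months. The change of -1.82 ± 0.41 (adjusted p = 0.0188) was not called with quantile normalisation (adjusted p = 0.0688) or array weights (0.101). It was not called either without the first cTEC array at 1 month (adjusted p = 0.124) or at 6 months (0.101), or without the second mTEChi array at 1 month (0.0785).

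Ligands for mature T cells and dendritic cells followed. Of 12 costimulatory genes other than Cd80, 6 were higher in mTEChi and 1, Cd83, in cTEC, against 13.8% and 9.99% of all genes. Cd70, the ligand of CD27, ranged from 4.30 over 4.61 to 5.88 in cTEC and from 9.05 over 9.62 to 9.94 in mTEChi (-4.81 ± 0.21). Icosl, Tnfsf9 and Pdcd1lg2 differed by -3.08 ± 0.15, -3.01 ± 0.14 and -1.92 ± 0.16. Cd274, the other PD-1 ligand, was not called (0.31 ± 0.18). Cd80 and Cd86 had medians of 8.72 and 8.43 in mTEChi and of 5.26 and 5.11 in cTEC.

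Of 14 chemokine genes, 8 were higher in mTEChi and 4 in cTEC, against 13.8% and 9.99% of all genes. Ccl9 (-4.65 ± 0.37), Ccl5 (-3.64 ± 0.35) and Ccl20, the ligand of CCR6 (-3.49 ± 0.24), were on the medullary side with no overlap between arrays. The interferon-induced Cxcl9 ranged from 6.21 over 7.24 to 9.22 in cTEC and from 11.03 over 11.72 to 12.19 in mTEChi. Cx3cl1 was higher in cTEC (1.70 ± 0.17), although a second probe set gave -0.22. Of 13 cytokines for thymocytes, 4 were higher in cTEC and 3 in mTEChi, against 9.99% and 13.8% of all genes. The medullary ones were Tslp (-2.45 ± 0.26), Igf1 (-2.44 ± 0.33) and Il15 (-1.67 ± 0.25), a cytokine needed by NKT cells.

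The widest differences of the comparison lay in genes of peripheral tissues. Of 21 genes known to depend on Aire, 19 were higher in mTEChi, with a median of -3.56. Of 12 known to depend on Fezf2, 10 were, with a median of -3.89. The share of all tested genes was 13.8%. Of genes with a probe set, 21 of 22 in the Aire list and 12 of 13 in the Fezf2 list were tested. A gene high only in mTEChi could pass the filter through those arrays alone, so both shares can favour mTEChi. Csn2, the milk protein beta-casein, had signals of 4.04, 6.46 and 8.95 in cTEC and 12.36, 12.91 and 13.45 in mTEChi (-6.58 ± 0.41, adjusted p = 4.89e-13). Ang4, an intestinal ribonuclease, ranged from 3.79 over 3.99 to 5.84 and from 11.10 over 11.23 to 12.06 (-6.83 ± 0.33). Mucl2, a salivary mucin-like protein, ranged from 3.05 over 3.36 to 3.98 and from 8.87 over 9.29 to 10.09 (adjusted p = 3.05e-20). The cTEC arrays of Ang4 and Mucl2 were near background.

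Saa1, a liver acute-phase protein (-5.79 ± 0.24), S100a8, a calcium-binding protein of neutrophils (-5.97 ± 0.41), and Reg3g, an intestinal antibacterial lectin (-3.56 ± 0.33), belong to the same list. Ins2, the insulin gene most often followed in the thymus, differed by -1.32 ± 0.13, at medians of 6.21 and 7.58. Of the Fezf2 list, Ttr, the thyroid hormone carrier transthyretin, ranged from 5.71 over 5.91 to 6.65 in cTEC and from 7.46 over 7.90 to 8.30 in mTEChi (-1.83 ± 0.15), and the lipoprotein gene Apoc3 differed by -3.28 ± 0.20. Chrna1, a muscle acetylcholine receptor subunit, lost its call without the second cTEC array at 3 months, and Tg, thyroglobulin, without the first mTEChi array at 3 months. The lowest count over fits without 1 array was 18 of 21 for the Aire list and 10 of 12 for the Fezf2 list. Among 18 cofactors of Aire, 2 were higher in cTEC and 2 in mTEChi, near the 9.99% and 13.8% of all genes. The kinase gene Hipk2 was not called (0.40 ± 0.18).

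Lists of genes of single cell lineages were counted next. A gene high only in mTEChi could pass the filter through those arrays alone, and members dim everywhere were not tested. The shares of tested members can therefore favour mTEChi. Over all tested genes, 13.8% were higher in mTEChi. Of genes with a probe set, 15 of 17 enterocyte and hepatocyte genes and 16 of 18 neuroendocrine genes were tested. For muscle genes it was 13 of 15, and for ciliated-cell genes 9 of 15. Of 15 enterocyte and hepatocyte genes, 14 were higher in mTEChi (median -2.74), among them Apoa4 (-4.64 ± 0.33), Fabp1 (-4.63 ± 0.46), Vil1 (-2.98 ± 0.17) and Alb (-2.07 ± 0.13). Ahsg was not called (0.04 ± 0.18). Of 11 microfold cell genes, 8 were higher in mTEChi (median -2.38), such as Pglyrp1 (-3.06 ± 0.22) and Serpinb1a (-2.38 ± 0.21). Of 21 genes of cornifying keratinocytes, 14 were higher in mTEChi (median -1.97). The desmosome gene Dsg1a ranged from 3.21 over 3.50 to 4.78 in cTEC and from 7.27 over 8.74 to 9.26 in mTEChi (-4.82 ± 0.21), and Spink5, Lor and Flg differed by -3.35 ± 0.28, -2.48 ± 0.19 and -2.41 ± 0.12. Ivl, the cornified-envelope protein involucrin, was not called (-0.12 ± 0.12).

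Neuroendocrine genes were higher in mTEChi in 10 of 16 cases (median -1.64). The share of all genes, 13.8%, also stands beside the muscle and ciliated-cell counts. Calcb, a calcitonin gene-related peptide, ranged from 3.98 over 4.79 to 7.72 in cTEC and from 11.80 over 12.19 to 12.44 in mTEChi (-7.00 ± 0.39, adjusted p = 6.09e-14). The stress hormone gene Crh (-5.90 ± 0.28), the islet hormone gene Iapp (-5.44 ± 0.35) and the gut hormone gene Pyy (-3.51 ± 0.16) belong to this group, while Chga, chromogranin A, overlapped and was not called (-1.05 ± 0.48). Muscle genes were higher in 9 of 13 cases (median -1.10), led by the sarcomere genes Ttn (-4.77 ± 0.28) and Myh3 (-4.43 ± 0.17). With quantile normalisation 5 of the 13 muscle genes were called. Ciliated-cell genes were higher in 5 of 9 cases (median -1.04), including Capsl (-2.16 ± 0.18), and in 3 with the stricter filter.

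Of 12 tuft-cell genes tested, Lrmp was higher in cTEC over the 3 ages (1.67 ± 0.23, adjusted p = 5.45e-07) and the other 11 were not called. This count depended on single arrays, with 5 higher in cTEC without the first cTEC array at 1 month, 4 without the second mTEChi array at 6 months and 3 without the second cTEC array at 3 months. It was 2 without the first cTEC array at 6 months, either mTEChi array at 1 month or the first mTEChi array at 3 months. At 1 month 1 gene was higher in each population (median -0.24), at 3 months 5 were higher in cTEC (median 0.75, against 9.38% of all genes) and at 6 months 3 were (median 0.73, against 11.8%). The count at 6 months was 2 in cTEC and 1 in mTEChi without the first mTEChi array, and 3 in cTEC without the second. Pou2f3, the master factor of tuft cells, had a median of 6.27 in both populations (0.00 ± 0.12), and the channel Trpm5 (0.73 ± 0.38) and the cytokine Il25 (0.96 ± 0.25) overlapped. The mTEClo mean of the tuft marker Dclk1 was 9.89, against medians of 8.15 in cTEC and 7.89 in mTEChi.

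The transcription factors of these lineages were higher in mTEChi for 9 of 17 tested, against 13.8% of all genes, and the other 8 were not called. The list held 22 with a probe set, and those that did not pass the filter are not in this count. Insm1, the zinc-finger factor of endocrine cells, ranged from 3.57 over 4.30 to 6.79 in cTEC and from 10.51 over 10.85 to 11.46 in mTEChi (-6.33 ± 0.32, adjusted p = 7.97e-15). Spib, a factor of microfold cells (-2.95 ± 0.24), Foxa1, a factor of gut and gland epithelium (-2.92 ± 0.22), Grhl3, a factor of the epidermal barrier (-2.85 ± 0.13), Ptf1a of the exocrine pancreas (-1.65 ± 0.14), Foxj1 of ciliated cells (-1.52 ± 0.18), Myog of muscle (-1.40 ± 0.21) and Hnf4a of liver and gut (-1.08 ± 0.12) followed. Hnf4a was not called with equal array medians, with all its probe sets averaged or with the thymocyte covariate. The mTEClo mean was 8.38 for Insm1 and 9.66 for Spib, nearer the mTEChi medians. It was 4.38 for Grhl3 and 4.63 for Ptf1a, nearer the cTEC medians. Among the 20 largest medullary differences, the mTEClo mean was nearer to cTEC for 16 genes and nearer to mTEChi for Csn2, Insm1, Ptgs2 and Iapp.

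**Figure D3:**
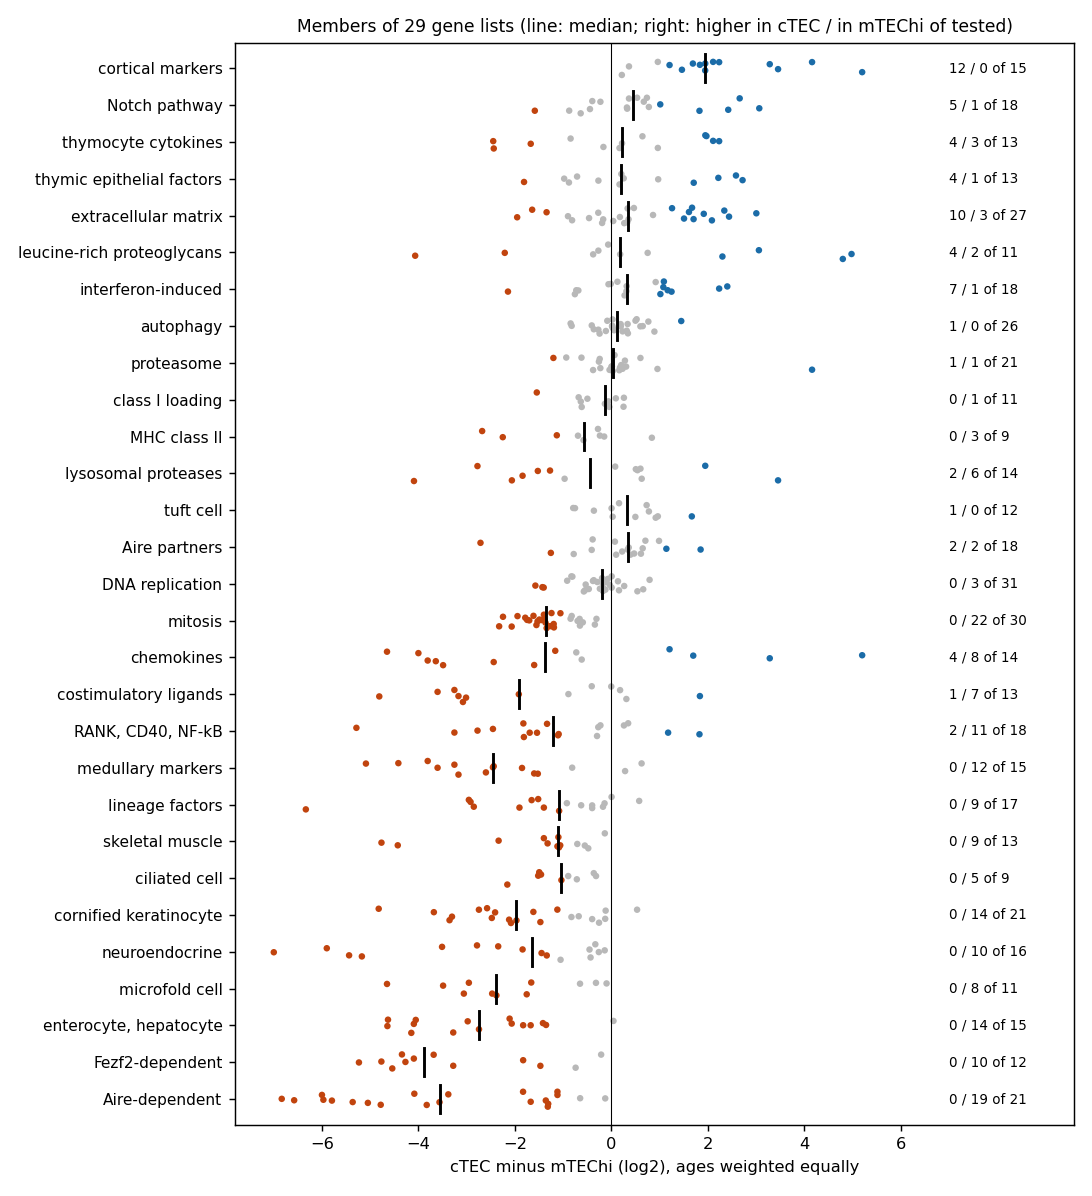
Differences between cTEC and mTEChi (horizontal axis, log2, ages weighted equally) for the tested members of 29 gene lists, 1 point per gene, blue for genes called higher in cTEC and orange for genes called higher in mTEChi, with the median of each list as a line and the counts at the right. Here the medullary and costimulatory lists include Cd80 and the proteoglycan list includes Prg4. Points of the Aire-dependent and Fezf2-dependent lists lie around medians of -3.56 and -3.89, and those of the cortical markers around 1.95.

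Epithelial structure differed as well. Of 15 claudin and junction genes, 6 were higher in mTEChi and 3 in cTEC, against 13.8% and 9.99% of all genes. Marveld2, the tricellular junction protein tricellulin (-3.46 ± 0.17), Cldn7 (-3.23 ± 0.25) and occludin, Ocln (-1.68 ± 0.15), were higher in mTEChi, and Cldn8 in cTEC (2.40 ± 0.19). Cldn1 was also higher in cTEC (1.77 ± 0.24) but not with its probe sets averaged. Of 13 simple and basal keratins, 6 were higher in mTEChi, against 13.8% of all genes, or 4 with equal array medians. Krt20, a keratin of gut epithelium, ranged from 4.66 over 4.89 to 6.15 in cTEC and from 9.87 over 10.33 to 10.62 in mTEChi (-5.21 ± 0.24), and Krt16 differed by -3.42 ± 0.19.

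The promoters of the called genes were read from RefSeq (mouse build GRCm38.p6), which lists 300 bases from 250 before to 50 after each start. Only genes with 1 listed start were counted, 868 called higher in cTEC, 1259 called higher in mTEChi and 7174 not called. The median number of CG dinucleotides was 20 for cTEC genes, 8 for mTEChi genes and 21 for genes not called. A window with 5 or fewer CG was found for 38.9% of the mTEChi genes, 11.9% of the cTEC genes and 11.9% of those not called. It was found for 15.5% of all tested genes and for 45.1% of all promoters in the table. The letters TATAAA on either strand were in 17.2% of the mTEChi genes, 8.18% of the cTEC genes and 7.44% of those not called. Of all promoters, 14.8% held them. They were in 36.4% of 11 cortical markers and in 23.5% of 17 Aire-dependent genes. For 17 Aire-dependent genes the median was 2 CG. The letters TTCNNNGAA, the core bound by STAT factors, were in 29.4% of those 17, against 6.69% of all tested genes and 8.49% of all promoters. They did not set the populations apart, at 6.51% of the mTEChi genes, 6.34% of the cTEC genes and 6.76% of those not called. A match describes the letters in the window and is not evidence of binding. The tested genes held a smaller share of windows with few CG than all promoters. A gene high only in mTEChi could pass the filter through those arrays alone. The contrast with genes not called can therefore favour mTEChi, and the part of the filter in it was not tested.

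The 120 bases before the start are shown for 6 genes of the results, 5′ to 3′ on the strand of the gene. The first 3 are tissue-restricted genes high in mTEChi and the others are the cortical genes Cxcl12 and Psmb11, and Mucl2, a salivary gene high in mTEChi. Capitals mark TTCNNNGAA in Csn2 and Csn1s1, TATAAA in Fabp1, and CG in the last 3.
Csn2 (chr5:87699426-87699545, minus strand): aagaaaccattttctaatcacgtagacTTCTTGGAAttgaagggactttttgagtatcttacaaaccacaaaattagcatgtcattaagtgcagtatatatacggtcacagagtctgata
Csn1s1 (chr5:87666088-87666207, plus strand): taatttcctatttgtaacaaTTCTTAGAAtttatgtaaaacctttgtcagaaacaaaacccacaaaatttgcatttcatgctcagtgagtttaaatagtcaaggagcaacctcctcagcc
Fabp1 (chr6:71199759-71199878, plus strand): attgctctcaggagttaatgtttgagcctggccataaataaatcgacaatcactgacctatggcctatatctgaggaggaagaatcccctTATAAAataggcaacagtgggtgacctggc
Cxcl12 (chr6:117168415-117168534, plus strand): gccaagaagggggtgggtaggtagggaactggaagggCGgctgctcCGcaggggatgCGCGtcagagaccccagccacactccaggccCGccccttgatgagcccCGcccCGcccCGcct
Psmb11 (chr14:54625190-54625309, plus strand): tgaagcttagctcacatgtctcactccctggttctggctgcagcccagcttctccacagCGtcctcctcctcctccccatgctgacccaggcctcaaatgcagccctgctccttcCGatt
Mucl2 (chr15:103899313-103899432, minus strand): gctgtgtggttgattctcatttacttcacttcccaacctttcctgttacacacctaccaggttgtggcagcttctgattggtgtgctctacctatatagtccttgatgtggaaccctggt
The capitals in Csn2 begin 93 bases before the start and those in its neighbour Csn1s1, a second casein gene, 100 bases before. In Fabp1, TATAAA begins 30 bases before the start. Cxcl12 holds 8 CG in the bases shown, Psmb11 holds 2 and Mucl2 holds 0. Both caseins were higher in mTEChi, Csn2 by the difference given above and Csn1s1 by -1.83 ± 0.16.

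**Figure D4:**
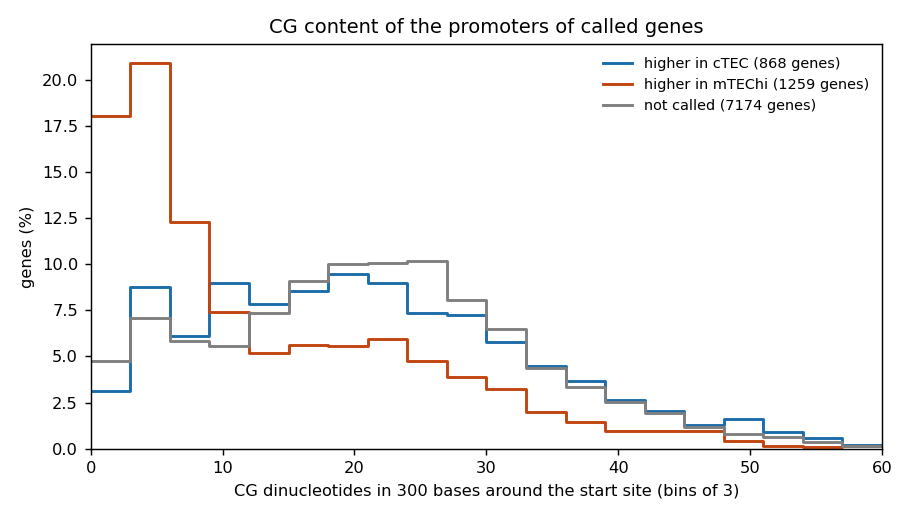
Share of genes (vertical axis, percent) by the number of CG dinucleotides in the 300 bases around the start (horizontal axis, bins of 3), for genes called higher in cTEC, higher in mTEChi or not called. The curve of the 1259 mTEChi genes peaks at few CG, and those of the 868 cTEC genes and the 7174 other genes follow each other. Only genes that passed the filter are counted.

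Mitotic genes separated the populations in an age-dependent way. Over the 3 ages, 22 of 30 genes of mitosis were higher in mTEChi (median -1.35), against 13.8% of all genes. With all probe sets averaged 14 were called. At 1 month the median difference of the list was -0.06, with 2 genes higher in cTEC and 1 in mTEChi (13.8% of all genes tested were higher in mTEChi at that age). At 3 months it was -2.18, with 28 genes higher in mTEChi (14.1% of all). At 6 months it was -1.63, with 23 genes higher (14.9% of all), or 17 and 27 without the first and the second mTEChi array. The median level of the list was 8.11 and 7.77 in the cTEC arrays at 1 month, 5.88 and 6.28 at 3 months, and 6.55 and 6.69 at 6 months. The mTEChi arrays lay between 7.83 and 8.44 at every age.

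The change itself was tested. From 1 to 3 months the difference fell for 22 of the 30 genes, against 0.704% of all genes tested, and from 1 to 6 months for 15, against 1.48%. The first count was 11 without the first cTEC array at 1 month or at 3 months and 13 without the first mTEChi array at 3 months. The second was 5 without the first cTEC array at 1 month or at 6 months and 6 without the second mTEChi array at 1 month. With array weights the counts were 24 and 7, and with only the cTEC and mTEChi arrays or only the epithelial arrays in the fit they were 15 and 8. Nusap1, a spindle microtubule protein, read 9.55 and 9.18 in cTEC at 1 month, 6.52 and 6.70 at 3 months, and 7.47 and 8.06 at 6 months, while mTEChi stayed between 8.85 and 9.83. Its difference changed by -3.06 ± 0.43 from 1 to 3 months (adjusted p = 0.000573). Ttk, a kinase of the spindle checkpoint, had differences of -0.92, -3.01 and -3.05 at the 3 ages, and Kif2c, a mitotic kinesin, of -0.49, -2.78 and -2.56. Without the first and the second mTEChi array at 6 months, the last value was -2.78 and -3.31 for Ttk and -2.58 and -2.55 for Kif2c.

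Of 31 replication genes tested, 3 were higher in mTEChi over the 3 ages, Uhrf1 (-1.58 ± 0.16), Pole (-1.43 ± 0.16) and Pold1 (-1.40 ± 0.14), a smaller share than the 13.8% of all genes, and the median was -0.19. Their difference fell for 6 of 31 from 1 to 3 months and from 1 to 6 months, against 0.704% and 1.48% of all genes. The first of these counts was 4 to 10 and the second 1 to 8 when single arrays were left out, with 10 reached without either mTEChi array at 6 months, 1 without the first cTEC array at 1 month or at 6 months, and 2 without the second mTEChi array at 1 month. With array weights the counts were 14 and 2, and with only the cTEC and mTEChi arrays or only the epithelial arrays in the fit they were 4 and 2. Of 23 cell-cycle controllers, 4 were higher in mTEChi and 2 in cTEC, near the 13.8% and 9.99% of all genes. The other 17 were not called. As single values, the inhibitors Cdkn2b (-3.12 ± 0.18), Cdkn1c (-2.26 ± 0.19) and Cdkn1a (-1.68 ± 0.18) were higher in mTEChi. Ccne2, a cyclin of S phase entry, was also higher there (-1.54 ± 0.19). Ccnd3, a cyclin of the preceding phase, was higher in cTEC (1.32 ± 0.13), though neither with its probe sets averaged nor with the thymocyte covariate.

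Thymocyte markers and RNA integrity also differed among the cTEC arrays. The mean level of the markers was 8.54 and 8.15 at 1 month, 6.49 and 7.33 at 3 months, and 7.51 and 8.16 at 6 months, and the 3′ minus 5′ difference of the control probe sets, a measure of RNA integrity, was 2.63 and 2.43 at 1 month against 1.94 to 2.04 later. In mTEChi the latter lay between 1.73 and 2.11. Fitted with the thymocyte covariate, the difference fell for 15 mitosis genes from 1 to 3 months and for 15 from 1 to 6 months, and with the 3′ minus 5′ difference the counts were 19 and 11.

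**Figure D5:**
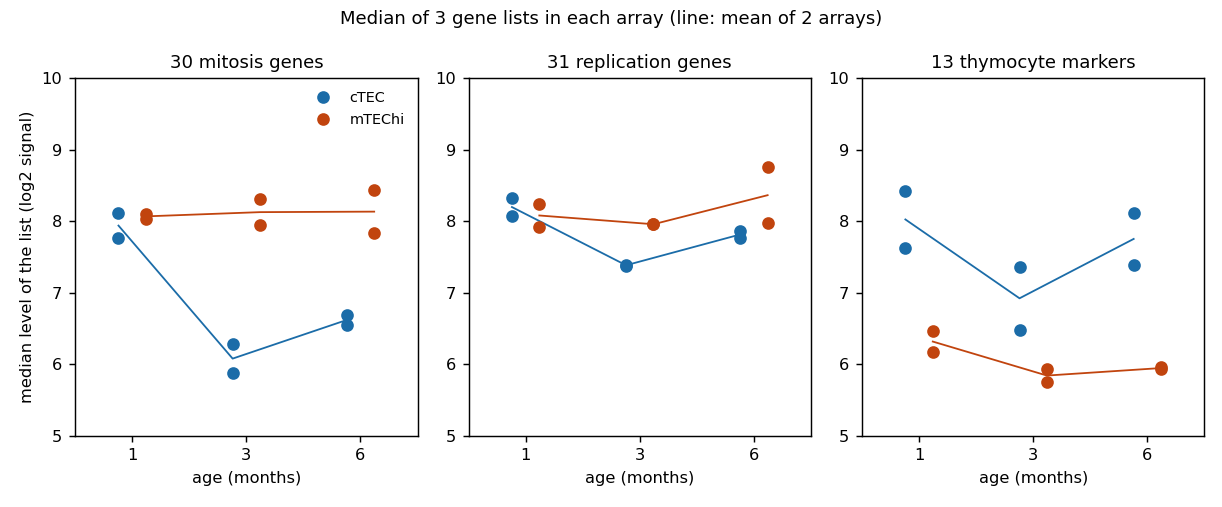
Median log2 signal (vertical axis) of the mitosis genes, the replication genes and the thymocyte markers in each array of cTEC and mTEChi, by age in months (horizontal axis), with lines through the mean of the arrays of an age. The mitosis median of cTEC is 7.77 and 8.11 at 1 month and 5.88 and 6.28 at 3 months, and that of mTEChi stays between 7.83 and 8.44.

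Single genes also changed with age. Otog, a protein of the inner-ear membranes, was at 5.22 and 5.13 in cTEC at 1 month, 6.43 and 5.69 at 3 months, and 9.99 and 9.31 at 6 months, while the mTEChi arrays lay between 5.65 and 7.06. Its difference rose by 5.32 ± 0.42 from 1 to 6 months (adjusted p = 3.96e-08), against 0.828% of all genes that rose. Cldn9, a claudin, read 4.17 and 6.15, then 8.01 and 7.17, then 9.44 and 8.63 in cTEC and stayed between 6.05 and 7.08 in mTEChi. Its difference turned from -1.90 to 1.39 and 2.33, a rise of 3.29 ± 0.52 from 1 to 3 months (adjusted p = 0.00139, against 0.179% of all genes). Prg4 was high in cTEC at 3 months alone, at 8.03 and 8.14, against 4.17 to 4.90 at the other ages, and its difference from mTEChi was -4.59, -1.79 and -5.81. At 6 months the difference without the first and the second mTEChi array was 2.26 and 2.40 for Cldn9 and -5.66 and -5.97 for Prg4. Whichever array was left out, the Otog change from 1 to 6 months and the Cldn9 change from 1 to 3 months were called. So were the Prg4 changes from 1 to 3 and from 3 to 6 months. The Prg4 change from 1 to 6 months, -1.22, was not called in the fit of all arrays (adjusted p = 0.154). With only the cTEC and mTEChi arrays in the fit, the Cldn9 change from 1 to 3 months was not called.

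Some changes lay on the medullary side. S100g, a vitamin D-dependent calcium binder, read 8.10, 8.34, 7.98 and 8.35 in mTEChi at 1 and 3 months and 5.89 and 4.81 at 6 months, while cTEC lay between 3.68 and 4.75. Its change from 3 to 6 months of 2.04 was called (adjusted p = 0.00784), but not without the second mTEChi array at 6 months (adjusted p = 0.0686) or at 3 months (adjusted p = 0.0661). Bcan, a brain proteoglycan, read between 9.01 and 9.35 in mTEChi at 1 and 3 months and 7.05 and 7.11 at 6 months, and its change of 1.76 was called with either array at 6 months left out. The count of genes whose difference changed depended on these arrays. From 3 to 6 months, 15 genes rose (0.103% of those tested) and 12 fell (0.0828%) with both, 892 and 489 without the first mTEChi array at 6 months, and 6 and 6 without the second.

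Markers of other cells were measured beside these results. Their counts stand against 13.8% of all tested genes higher in mTEChi. Of 10 macrophage markers, 7 were higher in mTEChi, among them Csf1r (-2.99 ± 0.27). Their mean level was 6.05 to 6.35 in cTEC and 7.27 to 7.78 in mTEChi. It was 7.15 to 8.76 in the Sirpa- and 9.65 to 10.36 in the Sirpa+ dendritic cells. Fcgr1 was below the pooled median in both epithelial populations. Of 10 dendritic cell markers 4 were higher in mTEChi, at a mean level of 5.69 to 6.21 against 4.93 to 5.42 in cTEC and 8.86 to 9.37 in the dendritic cell arrays, with Xcr1, Cd209a and Clec10a below the pooled median in both. Of 8 neutrophil markers 5 were higher in mTEChi, S100a8, S100a9, Mpo, Camp and Ngp, at a mean level of 7.87 to 8.32 against 5.15 to 6.46. Elane was not called, and Csf3r was below the pooled median in both. Hbb-y, an embryonic globin gene, had the largest difference of all (-7.30 ± 0.18). Of 3 erythroid markers tested, 2 were higher in mTEChi, with a median of -1.22. The mean level of the 5 erythroid markers with a probe set was 4.50 to 4.96 in cTEC and 5.41 to 5.77 in mTEChi. Among them, Hba-a1 and Epb42 were below the pooled median in all 12 arrays. The part of such cells in these differences was not tested.

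Ighm, the immunoglobulin heavy chain gene, was among the 20 largest cortical differences, at signals of 12.09, 13.48 and 14.10 in cTEC and 7.12, 9.83 and 10.91 in mTEChi (4.05 ± 0.57). It was the only one of 7 B-cell markers called higher in cTEC. A run of 5 light chain genes on chromosome 6, looked up after its values were seen, was also higher in cTEC, with differences from 1.21 (Igkv19-93) to 4.44 (Igkv15-103). The mean level of the 7 B-cell markers was 6.40 to 7.46 in cTEC and 6.56 to 7.02 in mTEChi. Of these markers, Pax5 was below the pooled median in both populations and Blk in cTEC. The part of B cells in these immunoglobulin differences was not tested. Pdgfrb, a receptor of fibroblasts and pericytes, was higher in mTEChi (-4.44 ± 0.29), where Pdgfra stayed below the pooled median.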

How the data were processed

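RNA of 36 sorted samples was hybridised to Affymetrix mouse whole-genome arrays, 12 of which enter the comparison. The authors deposited log2 signals per probe set, normalised with Gene Expression Commons per the series' design text. GCRMA stands in the submitters' processing notes, with no version among the sources used here. The range of the values sets the log base. Array medians lay between 5.61 and 5.75, and no further scaling was applied.

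The arrays hold 45101 probe sets. A single gene symbol belonged to 34945 of them, several symbols to 932 and none to 9160, and 64 were control sets. A gene was represented by its 1-symbol probe set with the highest mean over 36 arrays, which gave 18193 genes. The 14495 genes above the pooled median (5.66) in at least 2 arrays were tested. With limma 3.58.1 (R 4.3.3), each group of the 36 arrays received its own mean (18 groups, 18 residual degrees of freedom, eBayes with an intensity trend), and p-values were adjusted by Benjamini-Hochberg over all tested genes. A population difference was called at adjusted p under 0.05 and 2-fold or more, a change with age at adjusted p under 0.05. On simulated data of the same size, recovery was counted at adjusted p under 0.05, without the 2-fold limit. For equal ages, 99% of log2 differences of 1 and 100% of those of 2 were recovered. For the change from 1 to 6 months the shares were 25% and 88%.

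Genes named are Psmb11, Aire and Fezf2, the 20 largest called differences each way without overlap of arrays, members of gene lists (for lists over 26 genes, up to 8 called members each way), and the 8 largest called changes each way for each pair of ages. The members and lists were chosen with earlier results of these data known. Alternatives covered the filter, probe set choice, scaling, variance model, arrays in the fit, replicate block, covariates, the fold limit and each array left out. Deviations of same-numbered cTEC and mTEChi arrays correlated weakly (0.065, 0.099 and 0.041 at 1, 3 and 6 months), so replicate numbers were not taken as pairs. Over the 15 pairs of all populations, the highest correlations were 0.16, 0.42 and 0.19 at these ages. At 3 months 10 of the 15 were over 0.1. Probe sets of near-identical genes can share signal. The number of arrays limits the precision. Genes without a probe set of 1 symbol were not analysed here.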

Additional observations from a re-analysis of the deposited data

Results flagged for a closer look

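The difference between cTEC and mTEChi was tested for change between ages, and the 8 largest called changes in each direction per pair of ages are given on the log2 scale, positive where cTEC gained on mTEChi. From 1 to 3 months the changes upward were Cldn9 3.29, Prg4 2.80, Cbln4 2.73, Fbxo2 2.54, Cdhr2 2.44, Cyp2f2 2.40, Arfgef3 2.26 and Pcp4 2.24. Downward they were Nusap1 -3.06, Pclaf -2.93, Ccnb2 -2.90, Ncaph -2.87, Rrm2 -2.80, AI504432 -2.79, Aurkb -2.79 and Fignl1 -2.75. Of these 16 genes, 9 were called in every fit without 1 array, and Cbln4, Cdhr2, Cyp2f2, Arfgef3, Pcp4, AI504432 and Aurkb were not.

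From 1 to 6 months the changes upward were Otog 5.32, Igkv15-103 4.54, Cbln4 4.49, Fbxo2 4.44, Cldn9 4.23, Efhd1 3.70, Serpinb3a 3.69 and Vwc2 3.57. Downward they were S100a8 -4.65, S100a9 -3.36, Iapp -3.28, Saa3 -3.16, 2210407C18Rik -2.99, Lypd8 -2.92, Cdc20 -2.74 and Igfbp2 -2.67. Igkv15-103, S100a8, Iapp, Saa3, 2210407C18Rik, Lypd8 and Cdc20 lost their calls without 1 array. Fbxo2, a ubiquitin ligase subunit of neurons, read 4.66 and 5.04 in cTEC at 1 month and 9.10 and 8.30 at 6 months, against 6.67 to 7.77 in mTEChi.

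From 3 to 6 months the changes upward were Otog 4.19, Ush1c 2.88, Prss22 2.15, Gas2 2.13, Krt77 2.07, S100g 2.04, Fbxo2 1.90 and Bcan 1.76. Downward they were Prg4 -4.02, Cxcl13 -2.25, Celf6 -2.07, Rnf183 -2.02, Scn3b -1.95, Grem1 -1.77, Pcp2 -1.76 and Vsig8 -1.74. Krt77, S100g, Fbxo2, Cxcl13, Scn3b, Pcp2 and Vsig8 lost their calls without 1 array. With only the cTEC and mTEChi arrays in the fit, 8 of the 16 listed changes from 1 to 3 months were called. From 1 to 6 months 11 of 16 were, and from 3 to 6 months 3 of 16. With only the epithelial arrays these counts were 10, 11 and 9. The mitosis list gave 22 falls from 1 to 3 months and 15 from 1 to 6 months.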

How the results depend on the processing

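Of 331 named genes called over the 3 ages, 256 were called in every alternative other than the 4-fold limit, and 27 lost the call when some array was left out. A pair of genes turned sign, both with the thymocyte marker mean as a covariate, Cd2 at -0.29 (adjusted p = 0.673) and Slc4a1 at 0.48 (adjusted p = 0.605). With the 4-fold limit the counts higher in cTEC and in mTEChi were 344 and 831 over the ages, 391 and 853 at 1 month, 315 and 884 at 3 months, and 426 and 880 at 6 months. With the replicate number as a block they were 1448 and 2004 over the ages, and no named call over the ages was lost. The Krt77 change from 3 to 6 months was not called with that block.

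The counts of differences that changed with age depended on the setting and are limited by 2 arrays per group. The causes were not tested. From 1 to 3 months, array weights gave 69 rises and 226 falls, the cTEC and mTEChi arrays alone 8 and 49, the epithelial arrays alone 10 and 59, and the thymocyte covariate 8 and 50. From 1 to 6 months, array weights gave 34 and 32, the 12 arrays alone 54 and 82, and the epithelial arrays alone 112 falls. From 3 to 6 months the counts of rises and falls were 26 and 24 without the filter, 9 and 6 with the stricter one, 6 and 5 with array weights, 1 and 2 with the 12 arrays alone, and 6 and 5 with the epithelial arrays. Falls were 20 with probe sets averaged, 7 with equal array medians and 19 with a random replicate block, and rises were 9 with the thymocyte covariate. Over the 3 ages together, 107 genes changed with the 12 arrays alone and 142 with the epithelial arrays, against 282.

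Leaving out 1 array moved rises from 1 to 3 months between 5 and 78 and falls between 37 and 158. From 1 to 6 months the ranges were 46 to 648 and 58 to 772, from 3 to 6 months 6 to 892 and 5 to 489, and over all ages 129 to 1686. The highest counts from 1 to 6 months, from 3 to 6 months and over all ages came without the first mTEChi array at 6 months.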

Other observations

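Called genes were placed by their order on the chromosomes, for 14425 tested genes. Of genes called higher in mTEChi, 41.8% had a neighbouring gene called in the same direction, against 24.9% of all placed genes. For genes called higher in cTEC the shares were 29.2% and 18.6%. The longest run on the medullary side was of 10 genes on chromosome 3, from Lce1a1 to Lce3a, most of them genes of late cornified envelope proteins of the epidermis, with Kprp, a keratinocyte proline-rich protein, among them. A run of 9 keratin genes lay on chromosome 15, from Krt71 to Krt78, and one of 8 kallikrein genes on chromosome 7, from Klk8 to Klk1b11. A run of 7 genes on chromosome 5 began with Alb and its relative Afm, and another of 6 on that chromosome held the caseins Csn1s1, Csn2 and Csn1s2a beside the sulfotransferase genes Sult1d1 and Sult1e1. The longest run on the cortical side was of 5 immunoglobulin light chain genes on chromosome 6, from Igkv14-111 to Igkv8-30. Members of such families are similar in sequence, so their probe sets can share signal, and the share of that was not tested.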
